A study of Mus musculus with 2 samples.

Results

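Small RNA from cardiac mitochondria was sequenced in 1 library labelled control and 1 labelled STZ (streptozotocin, a beta cell toxin used to make mice diabetic). The miRNAs described here are the mouse-named entries with a late miRBase number, that is, names that start with mmu-miR- and carry a first number of 1000 or above. By the rule, miR-1291, miR-3607, miR-4454, miR-4485 and miR-5100 were left out. The rule used names only and found 192 of the 851 entries with a miRNA name and of the 1018 entries in all. Both groups shared the tissue (heart), the organelle (mitochondria) and the extraction, and differed in the treatment (control or STZ). The sources used here do not give strain, age, sex, STZ dose or how many hearts went into a library.

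miRNAs are short RNAs cut from hairpin precursors, and either strand of the hairpin (the 5p or the 3p arm) can be loaded into an Argonaute protein and guide it to target messages through its seed (bases 2 to 8). Numbers follow the order of discovery. Late numbers therefore hold many miRNAs found only by deep sequencing, few of them conserved. Several came from unusual precursors: small nucleolar and small Cajal body RNAs (snoRNAs and scaRNAs, which guide chemical modification of other RNAs), transfer RNAs, and mirtrons, short introns whose ends are made by splicing and not by the nuclease Drosha.

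The libraries held 508182 (control) and 706860 (STZ) assigned reads, and 1 read was worth 1.97 and 1.41 RPM (reads per 1000000 assigned reads), respectively. The muscle miRNAs miR-1-3p, miR-133a-3p, miR-208a-3p and miR-499a-5p were all present and made up 28.0% and 31.5% of the signal. Markers of other cell types differed between the libraries. Liver miR-122-5p stood at 787 and 73.6 RPM, the epithelial list (4 of 4 members above 0) summed to 222 and 21.2 RPM, and the endothelial list (2 of 2) to 66130 and 43490 RPM. Red cell miR-451a stood at 3727 and 1958 RPM and the leukocyte list (3 of 3) at 577 and 473 RPM. Relative to the read totals, some members went against the sum of their list. In the muscle list these were miR-133a-3p (34023 and 40988 reads) and miR-208a-3p (78 and 54). In the leukocyte list it was miR-142-5p (67 and 120 reads), and in the epithelial list miR-141-3p (0 and 4). The part of these differences in the values below was not tested. In such a bulk library, fewer cells of a type and less RNA per cell cannot be told apart. With 1 library per group, no p-value is possible. A value described as higher or lower is so between 1 pair of libraries and is no statement on the treatment. All intervals are exact 95% intervals for counting error alone: reads amplified by PCR and lacking molecular identifiers do not each stand for a separate molecule.

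A selection of the late-numbered miRNAs described below is printed from RefSeq (GRCm38.p6), with the seed in capitals. Names of 169 of the 192 entries, and of 56 of the 63 with a read, matched that table. First come the pair with most reads and examples from annotated small RNA genes, then examples from intron ends, and last examples of other entries that were called.
miR-6240: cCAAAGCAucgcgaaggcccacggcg
miR-1198-5p: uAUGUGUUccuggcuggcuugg
miR-1839-5p: aAGGUAGAuagaacaggucuug
miR-1843a-5p: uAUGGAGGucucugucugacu
miR-1843b-5p: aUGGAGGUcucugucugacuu
miR-1843b-3p: cCGAUCGUuccccuccauac
miR-3068-3p: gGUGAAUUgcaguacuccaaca
miR-1983: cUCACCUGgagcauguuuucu
miR-3535: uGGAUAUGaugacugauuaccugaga
miR-1981-5p: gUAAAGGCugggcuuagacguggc
miR-1981-3p: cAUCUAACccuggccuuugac
miR-3102-3p: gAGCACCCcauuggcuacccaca
miR-6899-3p: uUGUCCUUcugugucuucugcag
miR-5132-3p: cUGAUGUUccccaucccgcag
miR-6911-3p: uCAAUCACacucuguccacag
miR-2137: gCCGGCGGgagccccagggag
miR-12199-3p: aCACUGGUucucucuggcucu
miR-1947-5p: aGGACGAGcuagcugagugcug
miR-7051-5p: uCACCAGGaggaaguuggguca
miR-1964-3p: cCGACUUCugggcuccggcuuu
miR-5126: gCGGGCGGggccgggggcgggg

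Most of the late-numbered entries had no read. Of the 192, 63 (32.8%) had any read: 25 were found in both libraries, 18 more were found in the control and 20 more in the STZ library, which makes 43 and 45. The remaining 129 were at 0 in both. Among the 184 mouse-named entries with lower numbers, 88 (47.8%) had a read, and among all 851 named entries 481 (56.5%). Of the entries with a read, 39.7% of the late numbers and 66.3% of all named ones had reads in both libraries. A count of 0 allows up to 5.90 RPM in the control and 4.24 RPM in the STZ library (3 reads, a one-sided limit), so low levels were not detectable at this depth. The upper ends of the exact intervals, which are two-sided, were 7.26 and 5.22 RPM. Entries with reads were mostly low: the median was 7 reads over the 43 seen in the control and 10 over the 45 seen in the STZ library. Of the 192, 19 reached 20 reads over both libraries and 1 reached 100, miR-6240.

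The summed level of the late-numbered entries was nearly the same in both libraries. They held 628 control reads (1236 RPM) and 898 STZ reads (1270 RPM), an STZ to control ratio of 1.03 (0.927 to 1.14). As a share of all reads this was 0.124% (0.114 to 0.134) and 0.127% (0.119 to 0.136). The 184 mouse-named entries numbered below 1000, let-7 included, held 2147 and 2666 reads, 0.422% and 0.377% of all, with a ratio of 0.893 (0.843 to 0.945). The late numbers thus took 22.6% (21.1 to 24.2) of the reads under these mouse names in the control and 25.2% (23.8 to 26.7) in the STZ library. Without miR-6240 these shares were 15.3% and 17.6%, and the ratio of the late sum was 1.05 (0.923 to 1.20). Most reads stood under human names: the 473 human-named entries held 504219 control and 701704 STZ reads. miR-21-5p, for example, had 5178 and 6283 reads under its human name, while the mouse-named miR-21a-5p had 0 in both. The shares above are therefore of the small remainder under mouse names, and not of all miRNA signal in these hearts. Lower-numbered mouse names likewise hold only a part of the lower-numbered miRNAs.

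A single entry carried the largest part of this signal, and its level differed little between the libraries. miR-6240 had 240 control reads (472 RPM, 414 to 536) and 330 STZ reads (467 RPM, 418 to 520), a ratio of 0.989 (0.835 to 1.17), and made up 38.2% and 36.7% of all late-numbered reads. Its 26 bases are among the longest in the set, and the annotated copy (chr5:114851973-114851998, plus strand) lies between genes. Sequences were compared with small RNA transcripts by exact match only, so a near match, to ribosomal RNA for example, was not tested. Next came miR-1198-5p, from an intron of Gripap1 on the X chromosome, with 86.6 RPM (44 reads) and 60.8 RPM (43 reads) and a ratio of 0.703 (0.451 to 1.09). After it stood miR-1839-5p at 55.1 RPM (28 reads) and 56.6 RPM (40 reads), a ratio of 1.03 (0.618 to 1.73). For these 3 the intervals included equality.

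**Figure D1:**
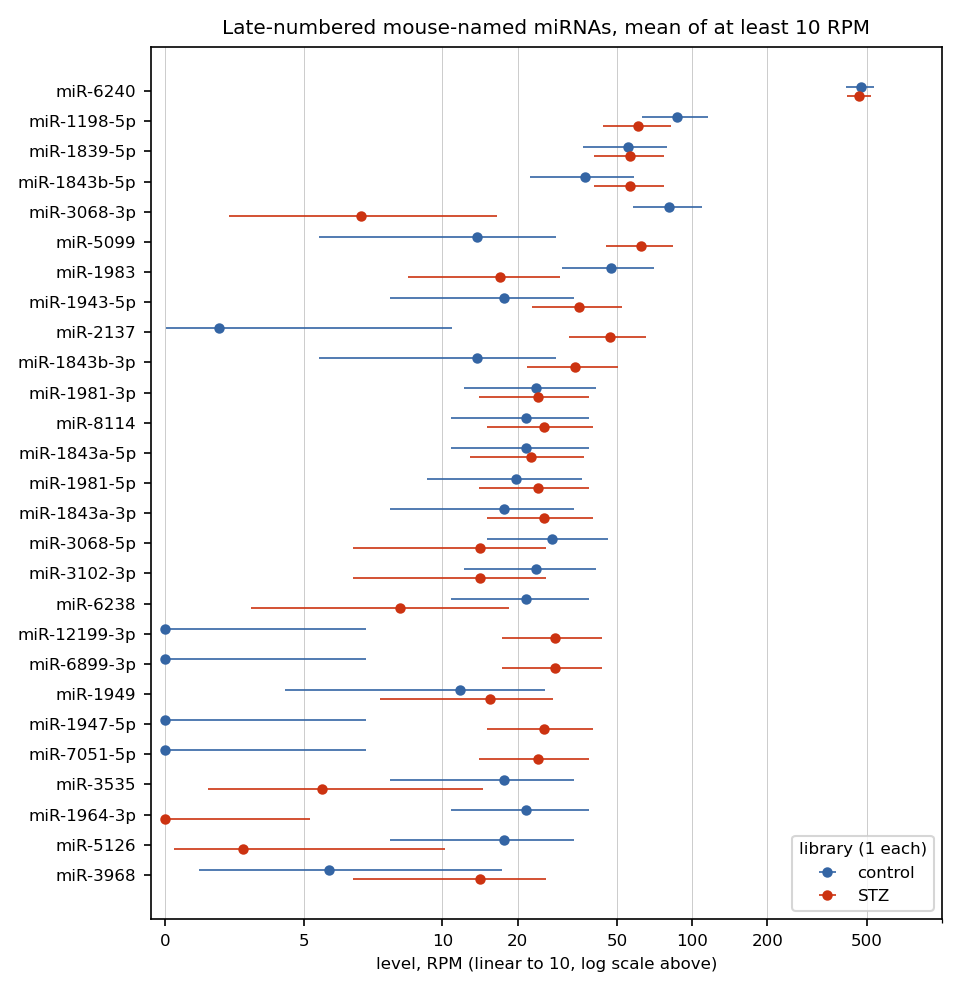
Level in RPM (horizontal axis, linear to 10 and logarithmic above) of the 27 late-numbered miRNAs whose mean reached 10 RPM, in the control library (blue) and the STZ library (red). Bars are exact 95% Poisson intervals for counting error. miR-6240 stands near 470 RPM in both, and 4 miRNAs are at 0 in the control and 1 at 0 in the STZ library.

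Agreement between the libraries was weak for the late-numbered entries. Over the 63 with a read in either library Spearman's correlation of the levels was 0.218, over the 25 with reads in both it was 0.365, and over the 19 with at least 20 reads it was -0.0467. The corresponding values for the mouse-named entries below 1000 were 0.577 (n = 88), 0.724 (n = 46) and 0.619 (n = 34). These are descriptions across miRNAs within 1 pair of libraries, and both sets differ in their read levels. Of the 19 late-numbered entries with at least 20 reads 1 reached 100 reads, against 9 of the 34 lower-numbered ones. Entries with at least 20 reads were also chosen on the sum of both libraries. How far this choice and the narrower range lowered the correlation was not tested. Of the late-numbered entries seen in the control, 58.1% were also seen in the STZ library, and of those seen in the STZ library 55.6% were also seen in the control. The same shares were 66.7% and 70.8% for the lower numbers, and 81.2% and 78.4% over all named entries. Entries seen in 1 library only reached 11 reads in the control (miR-1964-3p) and 20 in the STZ library (miR-6899-3p and miR-12199-3p), and together held 80 of the 628 control reads and 156 of the 898 STZ reads.

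**Figure D2:**
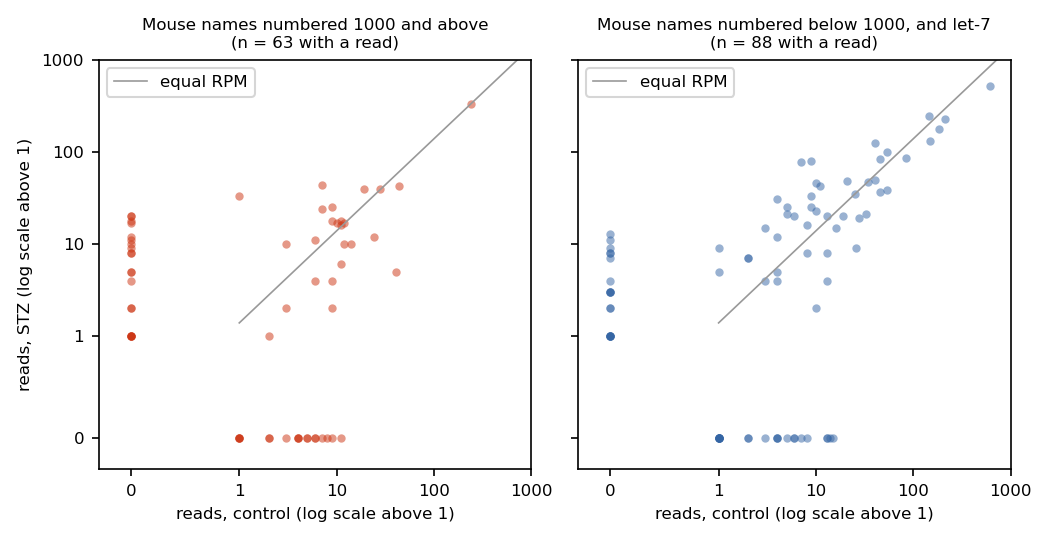
Reads of each mouse-named miRNA in the control (horizontal axis) and STZ library (vertical axis), both logarithmic above 1, for 63 entries numbered 1000 and above (left) and 88 lower-numbered entries (right) with a read. The line marks equal RPM, and points at 0 on either axis had no read in that library.

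By number, the earliest of these entries were found most often among the larger ranges. Reads were present for 19 of the 35 (54.3%) whose 4-digit number begins with 1 and for 14 of the 38 (36.8%) that begin with 3. The counts were 6 of 18 (33.3%) for those that begin with 5, 9 of 42 (21.4%) for 6 and 10 of 44 (22.7%) for 7. None of the 10 found under 7 was above 0 in both libraries, whereas 11 of the 19 found under 1 were. The 10 held 9 control and 24 STZ reads in all, so counts this small limit any statement on their agreement.

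Late-numbered miRNAs inside an annotated small RNA gene were seen in both libraries more often than those elsewhere. By exact sequence in GENCODE vM21 small RNA transcripts or by position in a RefSeq small RNA gene, 15 of the 169 matched entries (8.88%) lay in one, 11 of the 15 had reads and 10 of the 11 had reads in both libraries. Reads in both libraries were present for 3 of the 7 found at intron ends, 3 of the 22 found elsewhere in introns, 3 of the 6 found in exons and 4 of the 10 found between genes. Read level moved with this: the 11 had a median of 27 reads over both libraries, against 6 for those in introns away from the ends. At 20 or more reads, 8 of 8 entries in small RNA genes and 8 of 10 elsewhere were in both libraries, and at 1 to 19 reads 2 of 3 and 5 of 35. These counts were read after the values were seen and carry no test.

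The 11 with reads came from few genes. miR-1839-5p lay within a scaRNA annotated under the name Mir1839 on chromosome 7. The arms of miR-1843b (chromosome 1, an intron of the ubiquitin ligase gene Cop1) and miR-1843a (chromosome 12, an intron of Dcaf5) lay within Scarna3a and Scarna3b, and both arms of miR-3068 (an intron of Alkbh1) within a snoRNA annotated as Mir3068. miR-3535 lay within the snoRNA Gm24148 in an intron of Ncl, the gene of the nucleolar protein nucleolin, miR-5121 within Snord33 in an intron of the ribosomal protein gene Rpl13a, and miR-3084-3p within Snora19. miR-1983 overlapped the isoleucine tRNA gene n-TItat14 on chromosome 13 by position alone, and the strand of that gene was not compared.

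**Figure D3:**
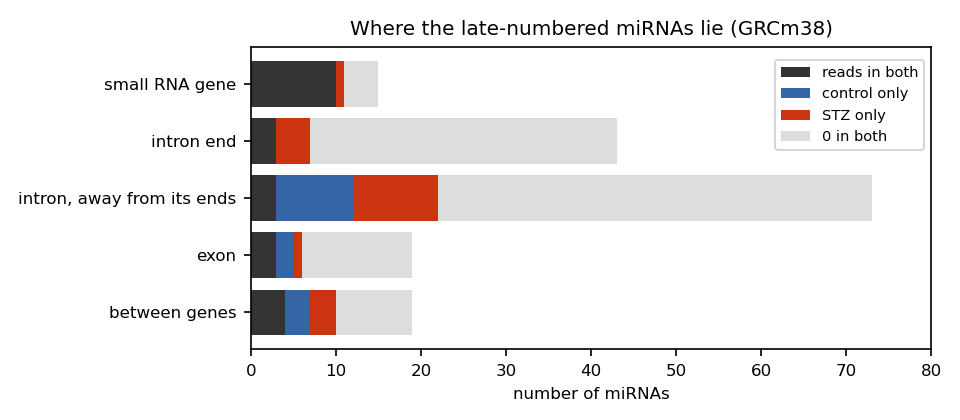
Number of late-numbered miRNAs (horizontal axis) by the place of their annotated locus, split by whether they had reads in both libraries, in 1 library or in neither. An exact sequence match to a small RNA transcript elsewhere also counted as a small RNA gene, as for miR-6481. Of 15 in small RNA genes 10 had reads in both, against 3 of 43 at intron ends and 3 of 73 elsewhere in introns.

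Summed over the 15, small RNA gene entries were lower in the STZ library, and this rested on single entries. They held 168 control and 178 STZ reads, a ratio of 0.762 (0.613 to 0.946), and without miR-3068-3p 127 and 173 reads, a ratio of 0.979 (0.774 to 1.24). Without miR-1983, the entry placed at a tRNA gene, they held 144 and 166, a ratio of 0.829 (0.659 to 1.04). Leaving out either thus made the interval include 1. miR-3068-3p stood at 80.7 RPM (41 reads, 57.9 to 109) in the control and 7.07 RPM (5 reads, 2.30 to 16.5) in the STZ library, 11.4-fold lower (4.51 to 37.0). The opposite arm miR-3068-5p had 14 and 10 reads, a ratio of 0.514 (0.204 to 1.24). miR-1983 stood at 47.2 RPM (24 reads) and 17.0 RPM (12 reads), 2.78-fold lower (1.34 to 6.10). miR-3535 had 9 and 4 reads and was 3.13-fold lower, with an interval (0.873 to 13.9) that included equality.

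The miR-1843 pair had more STZ than control signal in sum, and 1 of its 4 arms was called higher. The 5p sequences printed above share a run of 20 of 21 bases, shifted by 1 base, so that their seeds (AUGGAGG and UGGAGGU) differ although the RNAs nearly coincide, and reads could be split between the names. miR-1843b-3p stood at 13.8 RPM (7 reads) in the control and 34.0 RPM (24 reads) in the STZ library, which is 2.46-fold higher (1.03 to 6.77). The others were not 2-fold apart: 1.51 for miR-1843b-5p, 1.44 for miR-1843a-3p and 1.05 for miR-1843a-5p, each with an interval that included 1. The 4 arms together had 46 and 98 reads, a ratio of 1.53 (1.07 to 2.22). A separate human-named entry, hsa-miR-1843, had 18 and 72 reads and a ratio of 2.88 (1.70 to 5.12).

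Entries at the end of an intron were the class with the smallest share found. A mature sequence counted here when its end lay within 3 bases of the splice site of an annotated transcript on the same strand. This held for 43 of the 169, of which 40 were 3p arms at an acceptor site and 30 ended in AG, the letters that close almost every intron. Of the 43, 7 (16.3%) had a read, against 30.1% to 73.3% in the other classes. Among the 148 matched entries with lower numbers 2 lay at an intron end, and neither had a read. Of the 7 with reads, miR-1981 is the clearest mirtron: its hairpin fills an 82-base intron of Marc2, which encodes an enzyme of the outer mitochondrial membrane. The 64-base hairpin of miR-6899, in contrast, lies at the acceptor end of a 36269-base intron of Klf7 and does not fill it. In the 2 hairpins below, the first with both arms and the second with the 3p arm in capitals, the arm ends can be set against the hairpin ends.
Mir1981 (chr1:184822407-184822488, minus strand): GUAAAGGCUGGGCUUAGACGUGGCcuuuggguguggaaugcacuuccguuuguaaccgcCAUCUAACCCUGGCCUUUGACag
Mir6899 (chr1:64042438-64042501, minus strand): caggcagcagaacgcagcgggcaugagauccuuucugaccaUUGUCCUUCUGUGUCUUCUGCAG

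The intron-end entries had more STZ than control signal in sum, and most of the surplus came from entries at 0 in the control. Together they held 34 and 89 reads, a ratio of 1.88 (1.25 to 2.88), and 1.46 (0.954 to 2.27) without miR-6899-3p. Both arms of miR-1981 were level, with 10 and 17 reads for 5p (ratio 1.22) and 12 and 17 for 3p (ratio 1.02), and miR-3102-3p, of an intron of Arhgef17, had 12 and 10. The other 4 were at 0 in the control. miR-6899-3p, which ends exactly at an acceptor site of the transcription factor gene Klf7, had 20 STZ reads (28.3 RPM). With 0 control reads its fold has no upper limit, and the exact lower limit was 3.55; set against a floor of 3 control reads the fold was 4.79. miR-5132-3p, at an acceptor site of the interleukin-1 receptor kinase gene Irak1, had 12 STZ reads, miR-6911-3p in Dazap1 had 11 (exact lower limit 1.80) and miR-7048-3p in Dedd2 had 2. For miR-5132-3p the fold against the floor was 2.88, and the exact lower limit lay just under 2-fold, at 1.998.

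Calls of 2-fold differences were made as for all named miRNAs, among those with a mean of at least 10 RPM and on the scale of log2(RPM + 1), which understates the change of low entries. Of the 27 late-numbered entries past this level, 8 (29.6%) were higher and 6 (22.2%) lower in the STZ library, and the median log2 fold was 0.22. Over all 314 named entries past it, 17.8% were higher and 18.5% lower, with a median of -0.02. Among the 43 mouse-named entries with lower numbers past it, 27.9% were higher and 23.3% lower, close to the late-numbered shares. Read level bears on this comparison directly. Of the 18 late-numbered entries with 20 to 99 reads 7 (38.9%) were 2-fold apart, 5 higher and 2 lower. The share among all 120 named entries in that range was 55.8%, with 34.2% higher and 21.7% lower. In that range the late numbers were therefore not 2-fold apart more often than named miRNAs of like read counts. That range held 7 of the 14 called late-numbered entries. The rest of the 14 had fewer than 20 reads, and for these no comparison at like read counts was made. The level of 10 RPM was just met by miR-3968 (10.0 RPM) and miR-5126 (10.3 RPM) and just missed by miR-3057-5p (8.86 RPM) and miR-5121 (8.73 RPM). An entry at 0 in 1 library reaches a mean of 10 RPM through the other library alone, and is then always called. Such calls were 4 of the 8 higher and 1 of the 6 lower entries. Among all named entries they were 11 of the 56 higher and 14 of the 58 lower.

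Among the 8 higher entries, miR-2137 and miR-5099 had the most STZ reads. miR-2137, in an intron of Zfp185 on the X chromosome, had 1 control read (1.97 RPM) and 33 STZ reads (46.7 RPM), a ratio of 23.7 (3.97 to 965). Of its 21 bases 85.7% are G or C. miR-5099 stood at 13.8 RPM (7 reads) and 62.2 RPM (44 reads), a ratio of 4.52 (2.02 to 11.9). At 0 in the control, beside miR-6899-3p, were miR-12199-3p (chr5:77084517-77084537, between genes) with 20 STZ reads, miR-1947-5p in an intron of Lmln with 18, and miR-7051-5p with 17. The exact lower limits of their folds were 3.55, 3.16 and 2.97. miR-7051 lies in an intron of Etfb, the gene of an electron transfer flavoprotein subunit of the mitochondrial matrix. The last of the 8, with miR-1843b-3p, was miR-3968 with 3 and 10 reads, a ratio of 2.40 whose interval (0.617 to 13.6) included 1.

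The 6 lower entries were miR-3068-3p, miR-1983 and miR-3535 (above), miR-1964-3p, miR-5126 and miR-6238. miR-1964-3p, in an intron of Zfp84, had 11 control reads (21.6 RPM) and 0 STZ reads, and the exact lower limit of its fold was 3.49. miR-5126 had 9 and 2 reads, 6.26-fold lower (1.30 to 59.5), and miR-6238 had 11 and 6, 2.55-fold lower (0.864 to 8.40). Below the level of 10 RPM, miR-3057-5p (9 control reads), one of the miR-3102 3p species (miR-3102-3p.2-3p, 8 reads), miR-12206-5p (7 reads) and miR-1933-3p (6 reads) were also at 0 in the STZ library, with exact lower limits of the fold from 1.64 to 2.75. Of the 14 called entries 11 had an interval of the ratio that excluded 1, as had 101 of the 114 called among all named entries.

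Entries named 5p held more reads than those named 3p in both libraries. Of the 62 entries named 5p 21 had reads (167 control and 246 STZ reads), of the 92 named 3p 24 (124 and 162 reads), and of the 38 without an arm in the name 18 (337 and 490 reads, miR-6240 included). Both arms were listed for 22 of 169 precursors, and both had reads for 6. Arm use was 1-sided for miR-1198, miR-1839 and miR-1943, whose 87, 68 and 34 reads over both libraries were all 5p. The 30 reads of miR-3102 were all 3p, over its 3p species. Its only listed 5p entry was miR-3102-5p.2-5p, and no miR-3102-5p entry stood beside miR-3102-3p (22 of these reads). The arm use of miR-3102 therefore cannot be read from these entries. miR-1943-5p itself, in an intron of Tmem184b, stood at 17.7 and 35.4 RPM (9 and 25 reads). Its log2 fold of 0.96 lay just inside the limit, and the interval of its ratio (0.902 to 4.86) included 1.

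Of 4 precursors with at least 20 reads and both arms present, miR-3068 was the one whose arm ratio differed beyond counting error. Its 5p arm made up 25.5% (14.7 to 39.0) of control reads and 66.7% (38.4 to 88.2) of STZ reads, an odds ratio of 5.68 (1.47 to 25.1). For miR-1843b the 5p shares were 73.1% and 62.5%, and for miR-1843a 55.0% and 47.1%. The 5p sequence of miR-1843b also occurs exactly within Scarna3b, so these shares depend on how reads were split between the names. miR-1981 had 10 reads on 5p and 12 on 3p in the control, and 17 on each arm in the STZ library. For these 3 the interval of the odds ratio included 1. The hairpin of miR-3068, with the 5p arm first and both arms in capitals, is printed here.
Mir3068 (chr12:87437679-87437757, minus strand): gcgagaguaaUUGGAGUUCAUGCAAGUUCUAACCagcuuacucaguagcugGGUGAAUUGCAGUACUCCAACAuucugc

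**Figure D4:**
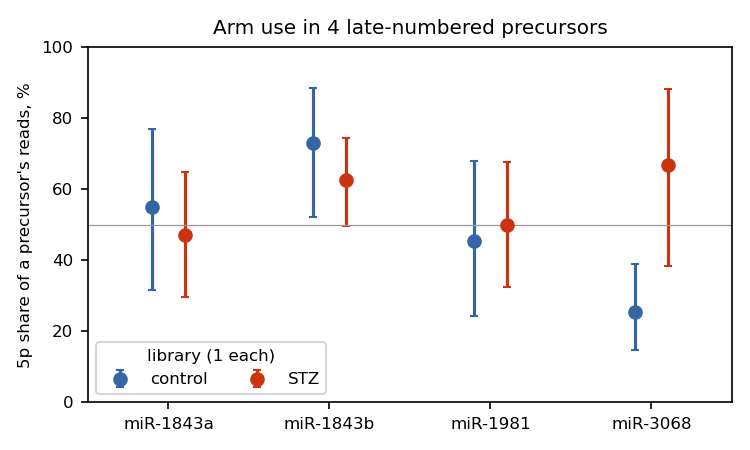
Share of a precursor's reads on its 5p arm (vertical axis, percent) in the control (blue) and STZ library (red) for the 4 late-numbered precursors with reads on both arms and at least 20 reads. Bars are exact 95% binomial intervals and the grey line marks equal use of both arms. miR-3068 is the farthest apart (25.5% and 66.7%), with intervals that meet at their ends (39.0 and 38.4). The shares of miR-1843a and miR-1843b depend on how reads of their nearly equal 5p sequences were split between the names.

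Base composition set the late-numbered entries apart from the lower numbers more than length did. The median G and C content was 54.5% over the 169 matched entries and 45.5% over the 148 with lower numbers, and the median length was 22 bases in both. A first base of U, common in miRNAs bound by Argonaute, stood in 81 of the 169 (47.9%) and in 61 of the 148 (41.2%). Among the 56 late-numbered entries with reads it stood in 22 (39.3%), among the 113 at 0 in both libraries in 59 (52.2%).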

How the data were processed

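Libraries were built from total RNA by adapter ligation, reverse transcription and PCR, per the labels' protocols. Per the submitters' processing notes, GRCm39 was the build. The sources used here give neither aligner nor miRNA reference. For each library the authors deposited a signal in reads per 1000000 assigned reads (RPM) (headed TPM in the control file). Values were whole multiples of 1 read for 100.0% of the entries (within 0.001 of a read), which gave the read totals. An entry without a name is a sum of others and was left out.

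Calls were 2-fold differences on log2(RPM + 1) over all named entries with a mean of 10 RPM or more. Ratios have exact conditional binomial intervals, shares and levels exact binomial and Poisson ones. With 1 library per group no model could be fitted. By rule the text names the 10 highest entries, every called one, up to 5 of the highest in each library among those missing from the opposite one, both arms of a precursor where 1 has 20 reads, and entries sharing a seed with these. Any further name was picked with its values known. The members and lists were chosen with earlier results of these data known. Sequences and loci (RefSeq and GENCODE vM21, both GRCm38) were matched by name, and no coordinate was converted. Tools were Python 3.11.15, pandas 2.3.3, numpy 2.4.6, scipy 1.17.1, matplotlib 3.10.9 and, for scaling, edgeR 4.0.16 and DESeq2 1.42.0 (R 4.3.3). The calling rule was tested on simulated reads.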

Additional observations from a re-analysis of the deposited data

How the results depend on the processing

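No paired analysis was possible because a single library stood for either treatment; for the same reason no replicate could be left out. The 8 higher and 6 lower late-numbered entries numbered 24 and 24 once the minimum level was dropped, 3 and 2 when it was raised to 20 RPM, and 5 and 2 when recovered reads had to number 20, differ 2-fold and have an interval excluding 1. At 4-fold they were 6 and 3. Scaling with TMM factors, with DESeq2 size factors or on totals lacking the 10 top miRNAs gave 8 and 6 and moved log2 ratios by at most 0.01. The shares of 22.6% and 25.2% fell to 15.3% (control) and 17.6% (STZ) without miR-6240. Spearman's correlation over the entries with a read, 0.218, became -0.0467 at 20 reads and 0.365 over those above 0 in both libraries (the last chosen after the data were seen). Requiring 3 reads left 35 entries in each library and 21 in both, and at the depth of the control 43.0 of the 45 STZ entries would be expected.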

Other observations

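Of the 129 late-numbered entries without a read, 1 bears on the organelle. The 19 bases of miR-6481 occur within mt-Tf, the mitochondrial phenylalanine tRNA, and this entry had 0 reads in both libraries of mitochondrial RNA. It was the only one of the matched mouse-named entries whose sequence lay in a mitochondrial tRNA or ribosomal RNA. Mitochondrial messenger RNAs were not searched. The entry was chosen after its values were seen.

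Seeds of late-numbered miRNAs were mostly their own among mouse miRNAs. Of the 56 with reads and a RefSeq sequence, 9 shared the 7 bases with another mouse mature miRNA. miR-6240 shared its seed CAAAGCA with miR-330-3p, miR-1983 its seed UCACCUG with miR-412-3p, and miR-1943-5p its seed AGGGAGG with miR-149-3p. The shared letters are a description and say nothing of shared targets in these hearts.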
